A study of Mus musculus with 2 samples.

Results

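The genes described are C1qa, C1qb, C1qc, Apoe, Trem2, Spp1, Gpnmb, Cd68 and Csf1r, 9 of the 32285 features of the count tables, chosen by symbol as genes of C1q-positive and lipid-associated macrophages. All 9 were found under these symbols, and all 9 passed the minimum of 10 counts in each comparison. They were followed through 2 mouse lung sections profiled with Visium, which counts RNA molecules (unique molecular identifiers) captured under spots laid out on a 100 µm grid. The metastatic section came from a female Balb/c mouse, 6 to 8 weeks old at inoculation, injected with 1000000 4T1 cells (m.f.p. model, that is, into the mammary fat pad) and euthanized after 21 to 23 days. 4T1 is a mouse mammary carcinoma line that seeds the lung from the m.f.p. The control section came from a lung labelled as control with no treatment, from the same cohort description of female Balb/c mice aged 6 to 8 weeks. Neither group carried a transgene or drug by its labels. Each group was 1 section of 1 lung, so section, animal and library cannot be told apart, no p-value is given, and intervals cover counting error only. The aim of the comparisons was to learn how these genes lie in the core, the margin and the far lung of the metastatic section and in the control lung, and whether C1q and Apoe part from Trem2, Spp1 and Gpnmb by position.

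C1qa, C1qb and C1qc encode the chains of C1q, the recognition molecule of the classical complement pathway, which tissue macrophages make themselves. Apoe encodes apolipoprotein E, a lipid carrier that macrophages, and in the lung also epithelial cells, secrete. Trem2 encodes a lipid-sensing surface receptor that signals through the adaptor Tyrobp and binds apolipoprotein E. Spp1 encodes osteopontin, a secreted phosphoprotein that binds CD44 and integrins and is made by macrophages, epithelial cells and many carcinoma cells. Gpnmb encodes a transmembrane glycoprotein of lysosomes. Trem2, Spp1 and Gpnmb together are commonly used to mark lipid-associated macrophages, the state described in fat tissue, atheroma and tumours. Cd68 encodes a lysosomal glycoprotein of macrophages and Csf1r the receptor for the macrophage growth factor CSF1, and both serve here as general macrophage transcripts.

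There were 14657881 counts over 1110 spots in the metastatic section, at a median of 11334.5, and 20329126 over 1888 spots in the control section, at a median of 9643.5. The sections shared 858 position barcodes, as both used the same array layout. Regions were derived from the counts, since the files held no region labels. The core was the k-means cluster with the highest score for cancer cell genes, computed without the 9 genes. It comprised 91 spots, 83 in a lower and 8 in an upper metastasis. The margin was the 86 spots within 200 µm of a core spot, the intermediate zone the 139 spots from there to 500 µm, and the far lung the 794 remaining spots, which include a few isolated spots off the main tissue. The cancer cell list summed to 12.2 counts per 10000 (CP10k) in the core, 9.09 in the margin, 4.05 in the far lung and 5.41 in the control lung. Hmga2, from that list, had 51 counts in the metastatic section and none in the control, whereas Krt14 had none in the metastatic section. Krt19 went the other way, at 0.148 CP10k in the core, 1.21 in the far lung and 1.70 in the control lung. Krt8 in the core was 1.67-fold the far level. The list also holds genes of dividing cells (Mki67, Top2a, Birc5, Cdk1 and Ccnb1), and their part in the score was not tested. The leading genes of the core cluster were Mmp3, Fcna, Saa3, Cd5l and Marco, and Fcna, Cd5l and Marco are genes of macrophages. "Core" is therefore the name of this cluster by its rule, and the share of cancer cells in it was not measured. Mmp12 led the cluster with the next highest score, and Gpnmb was also among the leading genes of that cluster. Leaving out the 9 genes thus did not make the regions independent of them, since genes that vary with them remained. How far this set the core and margin levels of Gpnmb and Apoe was not tested. The 8 upper core spots were shallow, with 16983 counts in all and a median of 1789 per spot, against a median of 19280 in the lower core. Scgb1a1, the club cell secretoglobin, took 23.2% of counts in the far lung, 3.45% in the margin and 0.246% in the core. It lowers the CP10k of every other gene where it is high, so ratios between genes of the same spots are given beside the levels.

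C1qa, C1qb and C1qc lie side by side, and upstream sequences of 5 of the genes are shown as a description only. On GRCm38, C1qb, C1qc and C1qa stand in this order on the minus strand of chromosome 4 and span chr4:136880129-136898803, or 18675 bases. Apoe lies at chr7:19696109-19699188 on the minus strand, and Spp1 (chr5:104435118-104441050), Gpnmb (chr6:49036546-49070929) and Trem2 (chr17:48346401-48354147) on the plus strand. Cd68 lies at chr11:69664213-69666153 on the minus strand. RefSeq upstream sequences on GRCm38.p6 were matched for 7 of the 9 genes, all but C1qa and Csf1r. The 250 bases before the start of 5 genes follow, each read 5′ to 3′ on the strand of its gene, taking the most upstream start of Apoe and of Spp1. Capitals mark matches on either strand to GAGGAA (the core of the site of PU.1, the macrophage lineage factor), CATGTG (the core of the M-box, bound by MITF and TFE factors) or TATAAA (the TATA box).
C1qb, chr4:136886201-136886450: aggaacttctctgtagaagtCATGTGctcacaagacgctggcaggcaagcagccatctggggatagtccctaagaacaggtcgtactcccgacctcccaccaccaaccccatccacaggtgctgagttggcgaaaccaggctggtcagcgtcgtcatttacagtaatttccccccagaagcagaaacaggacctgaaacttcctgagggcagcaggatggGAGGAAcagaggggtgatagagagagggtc
C1qc, chr4:136892915-136893164: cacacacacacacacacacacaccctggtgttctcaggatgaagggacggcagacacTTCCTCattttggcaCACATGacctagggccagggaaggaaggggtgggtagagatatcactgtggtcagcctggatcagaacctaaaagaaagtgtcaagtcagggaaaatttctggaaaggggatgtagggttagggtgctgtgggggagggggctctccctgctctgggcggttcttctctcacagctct
Apoe, chr7:19699189-19699438: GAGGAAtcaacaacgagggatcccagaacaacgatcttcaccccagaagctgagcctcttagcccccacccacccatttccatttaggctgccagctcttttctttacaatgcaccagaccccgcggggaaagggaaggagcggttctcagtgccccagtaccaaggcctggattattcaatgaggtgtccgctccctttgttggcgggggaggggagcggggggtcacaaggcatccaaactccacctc
Spp1, chr5:104434861-104435110: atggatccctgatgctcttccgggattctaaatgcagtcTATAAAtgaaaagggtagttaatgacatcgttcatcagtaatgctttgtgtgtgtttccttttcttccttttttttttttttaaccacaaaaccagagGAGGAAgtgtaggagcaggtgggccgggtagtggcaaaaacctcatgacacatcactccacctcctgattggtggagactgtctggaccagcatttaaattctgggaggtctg
Gpnmb, chr6:49036268-49036517: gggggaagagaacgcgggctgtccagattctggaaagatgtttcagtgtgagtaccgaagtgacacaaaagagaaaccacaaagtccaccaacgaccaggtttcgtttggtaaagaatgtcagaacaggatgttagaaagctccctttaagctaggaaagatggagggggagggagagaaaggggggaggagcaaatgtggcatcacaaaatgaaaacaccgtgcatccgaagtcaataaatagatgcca
C1qb and C1qc each held a PU.1 core and an M-box core. Apoe held a PU.1 core, and Spp1 a PU.1 core and a TATA box. Of the 5 motifs searched (the others were CACGTG, the E-box, and TGANTCA, the AP-1 site), none was in this window of Gpnmb. Of 32851 upstream windows of the same length, 23.3% held the PU.1 core, 12.3% the M-box core, 6.02% the E-box, 6.75% the AP-1 site and 12.4% the TATA box. No matches to different motifs overlapped in the 5 windows shown. The windows of Trem2 and Cd68, not shown, each held a PU.1 core and AP-1 matches but no M-box core. These matches describe the letters and are not binding sites, and a link between them and the levels was not tested.

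C1q transcripts were high in the core and in the margin and declined with distance. The summed level of C1qa, C1qb and C1qc was 13.9 CP10k in the core (95% Poisson interval 13.3 to 14.5, 2349 counts), 14.6 in the margin (13.9 to 15.4, 1557 counts), 6.63 in the intermediate zone, 3.43 in the far lung (3.31 to 3.54) and 1.75 in the control lung (1.69 to 1.80). The intervals of core and margin overlapped, and the remaining steps exceeded counting error. The margin had 4.27-fold the level of the far lung (exact binomial interval 4.02 to 4.53), and the core 0.952-fold that of the margin (0.892 to 1.02). With the core taken instead as 125 spots past a threshold on the score for cancer cell genes, in connected runs (the score-based core), the core had 1.60-fold the margin level, so which of the 2 regions was higher is not settled. Over single spots, the quartiles of the summed level were 10.4, 13.1 and 18.5 CP10k in the core, 10.5, 14.9 and 17.8 in the margin, and 0.907, 2.31 and 5.14 in the far lung. The lower quartile of core and margin spots thus lay above the upper quartile of far spots, although single far spots reached higher. In spots that each hold several cells, fewer cells of a type and less RNA per cell cannot be told apart.

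**Figure D1:**
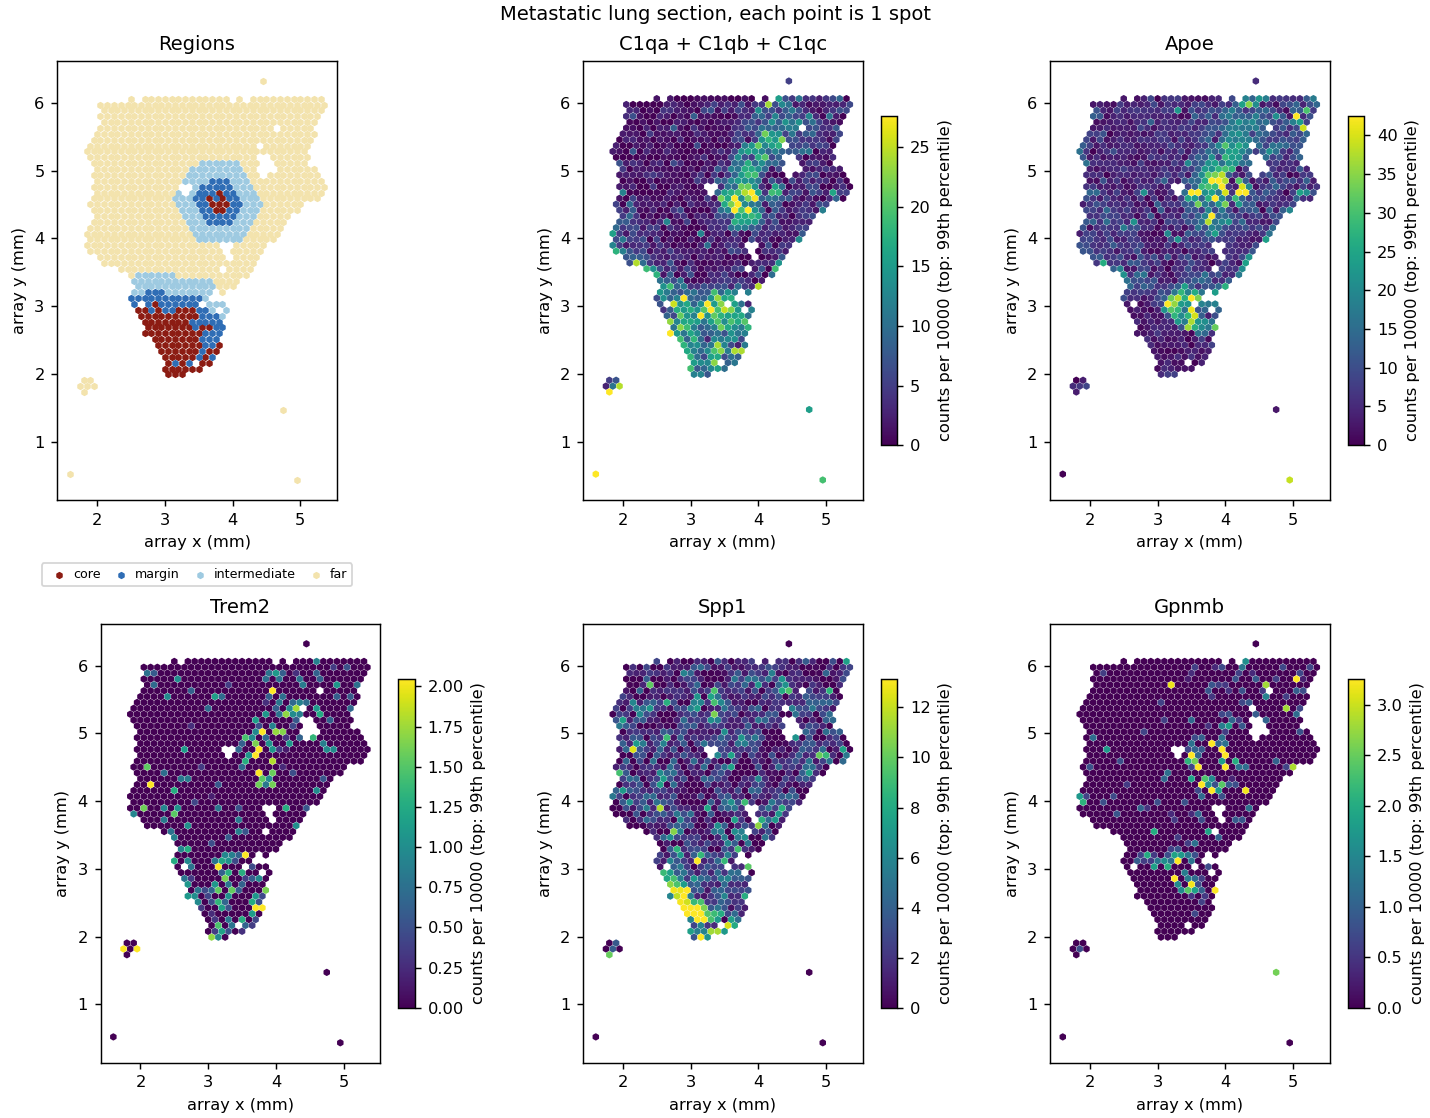
Maps of the metastatic section, with 1 point per spot at its array position in mm. The first panel gives the 4 regions, and the others the counts per 10000 of the C1q sum, Apoe, Trem2, Spp1 and Gpnmb, with the colour scale ending at the 99th percentile of spots; C1q fills core and margin, Apoe and Gpnmb lie around the core, and Spp1 is brightest on the left side of the lower core.

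The decline of C1q was gradual. The summed level was 16.2 CP10k within 100 µm of the core, 12.8 at 100 to 200 µm, 8.87 at 200 to 300 µm, 5.39 at 300 to 500 µm and 3.20 at 500 to 800 µm. It was 3.98 at 800 to 1200 µm and 3.15 beyond, so the far lung had no further monotonic decline. In the far spots as a whole, C1q and Apoe went together with r = 0.55 over 794 spots, which share a library and a divisor by total counts. In the control section this r was 0.39 over 1888 spots.

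The 3 chains did not keep a fixed ratio. C1qa was at 4.96 CP10k in the core, 5.25 in the margin, 1.52 in the far lung and 0.760 in the control lung. C1qb was at 4.72, 5.54, 1.05 and 0.549 CP10k in the same order, and C1qc at 4.23, 3.83, 0.856 and 0.436. The number of C1qb counts per C1qa count was 0.951 in the core (0.862 to 1.05) and 1.06 in the margin (0.939 to 1.19), against 0.692 in the far lung (0.639 to 0.749) and 0.722 in the control lung (0.668 to 0.780). C1qc counts per C1qa count were 0.852 in the core (0.770 to 0.943), 0.730 in the margin, 0.564 in the far lung (0.518 to 0.613) and 0.573 in the control lung. Far lung and control lung had the same ratios within counting error, and the core and margin had relatively more C1qb and C1qc. These ratios do not depend on the totals of the spots. Counts come from 3′ ends, and levels are compared here between regions and not between genes.

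Apoe was highest in the margin, and lowest in the core as clustered. Its level was 4.71 CP10k in the core (4.39 to 5.05, 796 counts), 18.8 in the margin (18.0 to 19.7, 2005 counts), 11.97 in the intermediate zone, 7.21 in the far lung (7.04 to 7.38) and 6.25 in the control lung (6.14 to 6.36). Every step in this order exceeded counting error. The margin had 2.61-fold the far level (2.48 to 2.74), and the core 0.250-fold the margin (0.230 to 0.272) and 0.654-fold the far level (0.607 to 0.704). The low level of the core depended on how the core was drawn. With the score-based core it was 0.630-fold the margin (0.594 to 0.668), no longer past 2-fold, and 1.26-fold the far level (1.19 to 1.32), and with smoothed clustering it was 0.370-fold the margin and could not be separated from the far lung (0.986, 0.932 to 1.04). Over single spots, Apoe had a median of 3.35 CP10k in the core, 16.1 in the margin and 6.23 in the far lung. Apoe counts per C1q count were 0.339 in the core, 1.29 in the margin, 2.10 in the far lung and 3.58 in the control lung, with no overlap of their intervals. Apoe thus lay with C1q around the metastases, whereas the core as clustered held C1q with little Apoe.

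**Figure D2:**
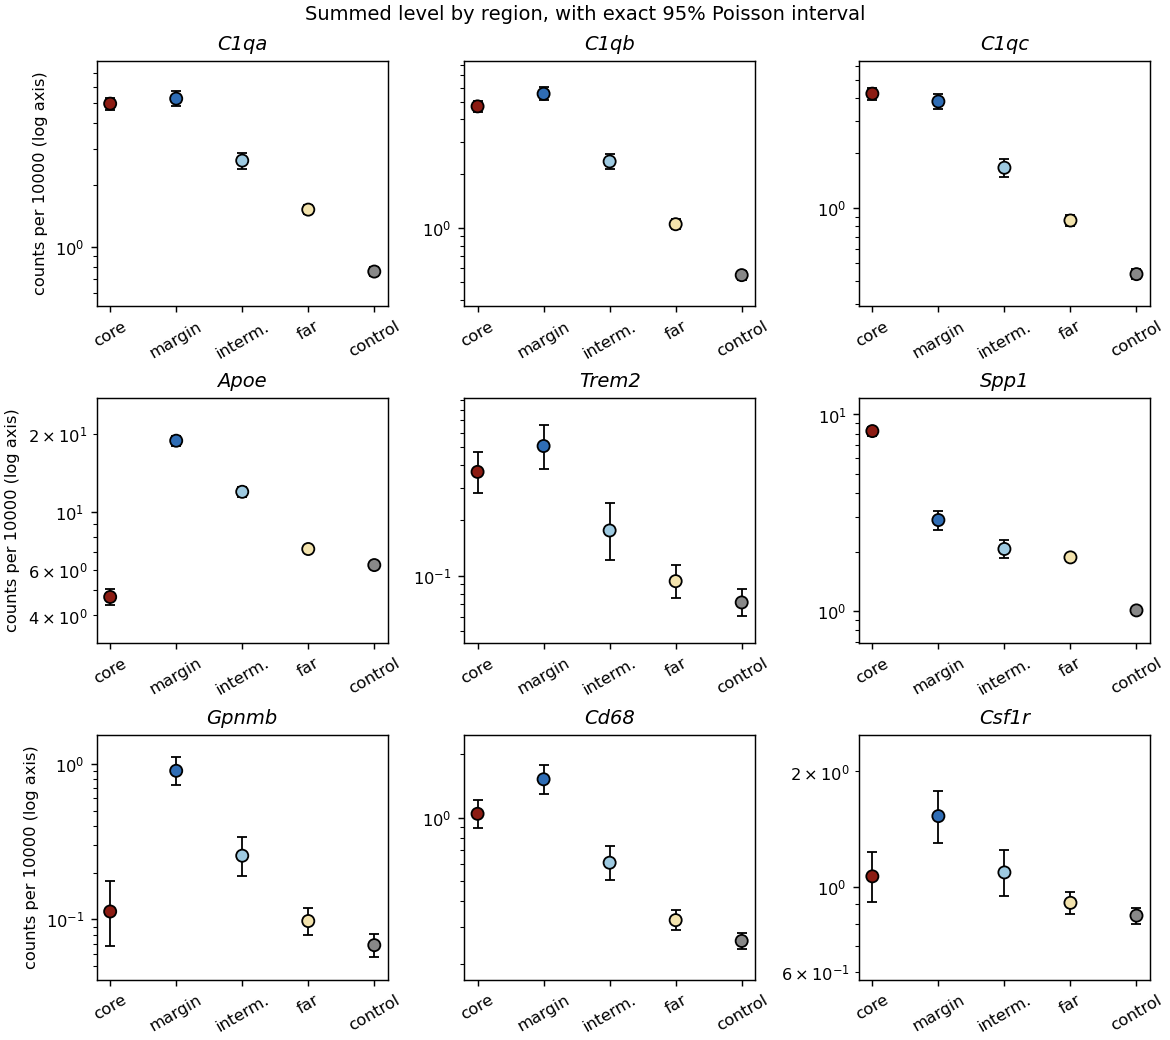
Summed level of each of the 9 genes in the core, margin, intermediate zone and far lung of the metastatic section and in the control lung, in counts per 10000 on a log axis that differs between panels. Bars are exact 95% Poisson intervals; the C1q chains are high in core and margin, Apoe and Gpnmb peak in the margin, and Spp1 is highest in the core at 8.23.

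Gpnmb was highest in the margin. It was at 0.112 CP10k in the core (0.0677 to 0.176, 19 counts), 0.901 in the margin (0.730 to 1.10, 96 counts), 0.257 in the intermediate zone (48 counts), 0.0977 in the far lung (98 counts) and 0.0684 in the control lung (139 counts). The margin had 9.23-fold the far level (6.89 to 12.4), and the core 0.125-fold the margin (0.0720 to 0.206). Core and far lung could not be separated, at a ratio of 1.15 (0.665 to 1.90). With the score-based core, the core was 0.802-fold the margin (0.580 to 1.11), which counting error does not separate from 1, and the margin 4.37-fold the far level. The core then had 3.50-fold the far level (2.52 to 4.87), and it was also above the far lung with smoothed clustering, at 1.95 (1.31 to 2.84), and with spots thinned to 5000 counts, at 3.06 (1.26 to 6.74), where the margin had 17.2-fold the far level. Whether the core had more Gpnmb than the far lung is therefore not settled, while the margin excess over the far lung was past 2-fold in these alternatives. Gpnmb was at 0.626 CP10k within 100 µm of the core (0.439 to 0.867) and at 1.22 at 100 to 200 µm (0.934 to 1.57), so it peaked a step further out than C1q. It was at 0.467 at 200 to 300 µm and at 0.141 at 300 to 500 µm.

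Trem2, in contrast, was high in both core and margin by its sums, as C1q was. Over single spots of these regions, r between Trem2 and each C1q chain lay between -0.12 and 0.08. Over the far spots it lay between 0.19 and 0.21, and over the whole metastatic section between 0.28 and 0.30. The C1q chains themselves had r from 0.08 to 0.52 with each other in core and margin. A low r of the sparse Trem2 there thus does not show that it parted from C1q. The level of Trem2 was 0.367 CP10k in the core (0.281 to 0.471, 62 counts), 0.507 in the margin (0.381 to 0.661, 54 counts), 0.176 in the intermediate zone (33 counts), 0.0937 in the far lung (94 counts) and 0.0718 in the control lung (146 counts). The margin had 5.41-fold the far level (3.80 to 7.64). Core and margin did not differ beyond counting error, at 0.724 (0.495 to 1.06), and neither did far and control lung, at 1.305 (0.996 to 1.70). Trem2 counts per C1q count were 0.0264 in the core, 0.0347 in the margin, 0.0273 in the far lung and 0.0411 in the control lung, where the interval (0.0346 to 0.0486) lay above that of the far lung (0.0220 to 0.0336). Gpnmb counts per Trem2 count were 0.306 in the core (0.173 to 0.519) and 1.78 in the margin (1.26 to 2.53), so these genes separated at the border of the core as clustered. With the score-based core, the core over the margin was 0.802 (0.580 to 1.11) for Gpnmb and 1.23 (0.877 to 1.73) for Trem2. Counting error then did not separate core from margin for either gene. With 243 Trem2 and 261 Gpnmb counts in the section, the median spot of every region had none of either. Their levels were read from sums only, and r values over spots with either gene rest on few counts.

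Spp1 was the only one of the 9 genes at least 2-fold higher in the core than in the margin. Its level was 8.23 CP10k in the core (7.81 to 8.68, 1391 counts), 2.91 in the margin (2.59 to 3.25, 310 counts), 2.07 in the intermediate zone, 1.88 in the far lung (1.80 to 1.97) and 1.01 in the control lung (0.969 to 1.06). The core had 2.83-fold the margin level (2.50 to 3.21) and 4.38-fold the far level (4.08 to 4.69), and the margin 1.55-fold the far level (1.37 to 1.75). Intermediate zone and far lung did not differ beyond counting error, at 1.10 (0.987 to 1.23). Spp1 counts per C1q count were 0.592 in the core and 0.199 in the margin, and again 0.549 in the far lung and 0.580 in the control lung. The level in the core came from the lower metastasis, with 8.31 CP10k and 1390 counts. The upper core held 1 Spp1 count, or 0.589 CP10k (0.0149 to 3.28), and 0 Gpnmb counts (interval 0 to 2.17 CP10k). In the upper metastasis alone Spp1 was thus lower in the core than in the margin, at 0.275-fold (0.00686 to 1.58), which counting error does not separate from 1.

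**Figure D3:**
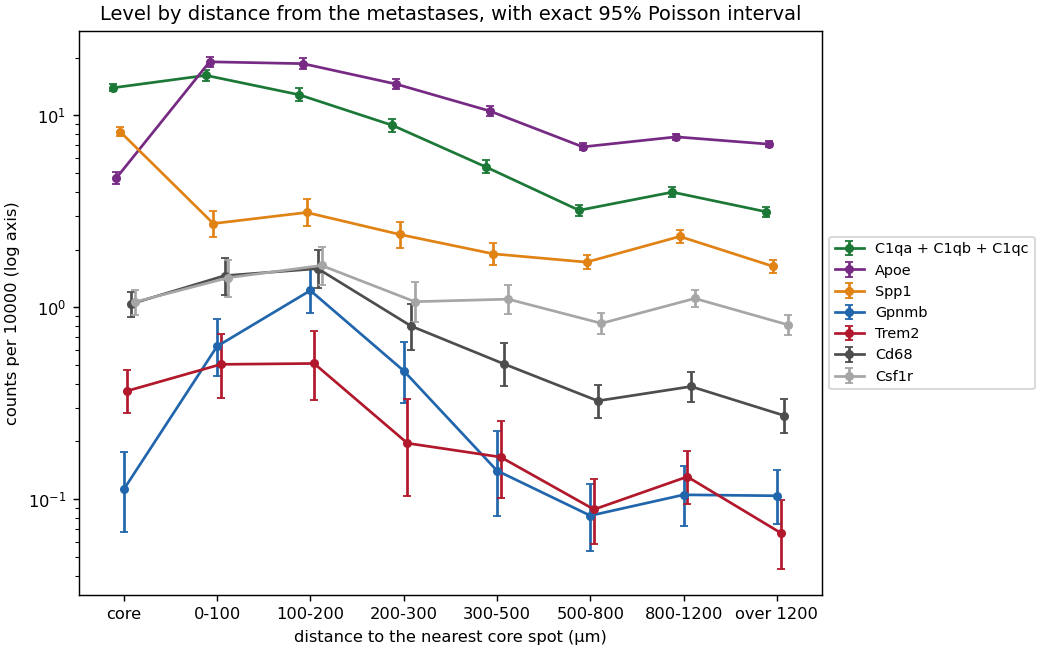
Level of the C1q sum, Apoe, Spp1, Gpnmb, Trem2, Cd68 and Csf1r in the core and in 7 rings of distance to the nearest core spot (µm), in counts per 10000 on a log axis with exact 95% Poisson intervals. Apoe steps from 4.71 in the core to 19.0 in the first ring, Spp1 steps from 8.23 to 2.73, and C1q declines from 16.2 in the first ring.

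Cd68 and Csf1r both were highest in the margin, except that with the score-based core the core had 1.57-fold and 1.29-fold the margin level. Cd68 was at 1.04 CP10k in the core (0.894 to 1.21), 1.52 in the margin (1.295 to 1.77), 0.610 in the intermediate zone, 0.325 in the far lung and 0.259 in the control lung. Csf1r was at 1.07 CP10k in the core (0.916 to 1.23), 1.53 in the margin (1.304 to 1.78), 1.09 in the intermediate zone, 0.909 in the far lung and 0.842 in the control lung. The margin had 4.68-fold the far level of Cd68 (3.85 to 5.67) but only 1.68-fold that of Csf1r (1.42 to 1.99), and 2.41-fold and 1.09-fold (0.924 to 1.27) with the score-based core. For Csf1r, core and far lung (1.17, 0.994 to 1.38) and far and control lung (1.08, 0.996 to 1.17) could not be separated.

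Because the macrophage transcripts themselves differed, what a macrophage-normalised value shows depended on the gene used. Per Cd68 count, C1q was at 13.3 counts in the core (11.4 to 15.6), 9.61 in the margin (8.17 to 11.4), 10.5 in the far lung (9.41 to 11.8) and 6.75 in the control lung (6.15 to 7.41). Margin and far lung did not differ on this scale. Per Csf1r count, C1q was at 13.1 in the core, 9.55 in the margin, 3.77 in the far lung and 2.07 in the control lung, so margin and far lung did differ. Apoe per Cd68 count was at 4.52 in the core, 12.4 in the margin, 22.2 in the far lung and 24.2 in the control lung, so on this scale the margin was below the far lung. Per Csf1r count it was at 4.42 in the core, 12.3 in the margin (10.5 to 14.5), 7.93 in the far lung (7.40 to 8.50) and 7.43 in the control lung, so the margin excess was kept. Trem2 per Cd68 count lay between 0.278 and 0.352 in all 5 regions, with intervals that overlapped. Per Csf1r count it was at 0.344 in the core (0.254 to 0.462) and 0.331 in the margin (0.239 to 0.453), against 0.162 in the intermediate zone, 0.103 in the far lung (0.0824 to 0.128) and 0.0853 in the control lung. Gpnmb per Cd68 count was 0.108 in the core (0.0635 to 0.174), 0.593 in the margin (0.455 to 0.767) and 0.301 in the far lung (0.237 to 0.378), and per Csf1r count 0.106, 0.589 and 0.107. Spp1 per Cd68 count was 7.90 in the core and 1.91 in the margin, and per Csf1r count 7.73 and 1.90. On both scales the core as clustered had less Apoe and Gpnmb and more Spp1 than the margin.

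**Figure D4:**
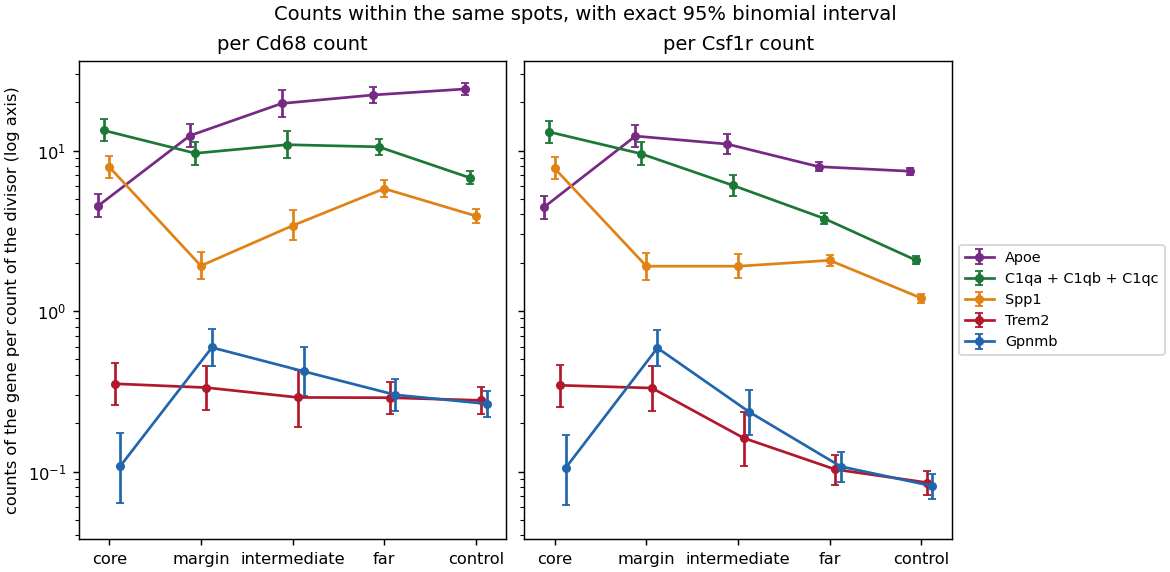
Counts of Apoe, the C1q sum, Spp1, Trem2 and Gpnmb per Cd68 count (left) and per Csf1r count (right) in the 5 regions, on a log axis with exact 95% binomial intervals. The core differs from the margin in the same way in both panels, whereas C1q in margin and far lung is 9.61 and 10.5 per Cd68 count but 9.55 and 3.77 per Csf1r count.

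The grouping of C1q and Apoe against Trem2, Spp1 and Gpnmb did not describe the core and the margin. The mean log2 ratio of core over margin was lower by 0.11 for Trem2, Spp1 and Gpnmb than for the C1q chains and Apoe, a difference of -0.11 (-0.42 to 0.20) that counting error does not separate from 0. The second group held genes that went opposite ways, and in the first Apoe fell far more than the C1q chains. Apoe, of the first group, and Gpnmb, of the second, were both low in the core as clustered and high in the margin, and Spp1 was the reverse. The C1q sum and Trem2 did not differ between core and margin beyond counting error. Of the chains, C1qb alone did, at 0.852 (0.765 to 0.949), but it was at 1.47 with the score-based core. With the score-based core this contrast was smaller, since the core over the margin was then 0.630 for Apoe and 0.802 (0.580 to 1.11) for Gpnmb, so a low Gpnmb of the core was not separable from the margin level. Over the 86 margin spots Apoe and Gpnmb had r = 0.52, over the 91 core spots r = 0.45, and over the far spots r = 0.13. Spots share a library, and Gpnmb is sparse.

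Over the core spots, Apoe and Spp1 were opposed, with r = -0.54 over 91 spots and -0.35 over the 83 spots of the lower metastasis. Spp1 also went with the depth of the spot, with r = 0.81 against the log of its total counts over all core spots and 0.68 in the lower core. Apoe went the other way, with r = -0.58 and -0.37. The part of depth in the opposition of Apoe and Spp1 was not tested. When every spot was thinned to 5000 counts, which left out the 8 upper core spots, Spp1 remained 2.42-fold higher in the core than in the margin. By position within the core, the 44 inner spots, over 100 µm from any spot outside, had 9.39 CP10k of Spp1 (8.79 to 10.0), and the 47 edge spots 6.74 (6.16 to 7.36). Apoe was at 3.43 in the inner spots (3.06 to 3.82) and at 6.37 in the edge spots (5.81 to 6.97). C1q was at 14.1 and 13.6, with overlapping intervals. Gpnmb had 5 counts in the inner and 14 in the edge spots.

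**Figure D5:**
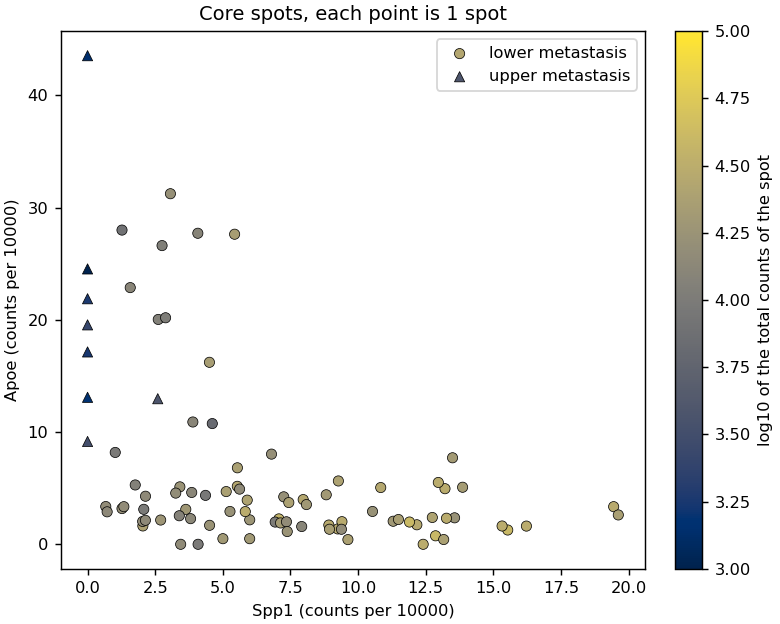
Apoe against Spp1 in counts per 10000 in each of the 91 core spots, circles for the lower and triangles for the upper metastasis, coloured by the log10 of the total counts of the spot. Spots high in Spp1 are low in Apoe and deep, and all but 1 of the 8 shallow upper spots have no Spp1 count.

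The summed C1q level of the margin was like around both metastases, whereas Apoe, Gpnmb, Spp1 and the cores differed. C1q in the margin was at 15.0 CP10k around the lower metastasis (14.1 to 15.9) and at 13.7 around the upper (12.5 to 15.1). Of the chains, C1qa was at 5.63 (5.110 to 6.20) and 4.32 (3.62 to 5.109). C1qb was at 5.55 and 5.50, and C1qc at 3.79 and 3.93. Apoe in the margin was at 16.7 around the lower (15.8 to 17.7) and 23.9 around the upper metastasis (22.2 to 25.7), and Gpnmb at 0.611 and 1.60. Spp1 in the margin went the other way, at 3.23 (2.84 to 3.66) and 2.14 (1.66 to 2.72). In the upper core, C1q was at 23.6 CP10k (16.8 to 32.1, 40 counts) and Apoe at 17.7 (11.9 to 25.2, 30 counts), against 13.8 and 4.58 in the lower core. The low Apoe of the core thus rested on the lower metastasis, and in the upper metastasis the Apoe intervals of core and margin overlapped.

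Of the 9 genes, 7 were at least 2-fold higher in the margin than in the far lung, all but Spp1 and Csf1r, where 23% of 14191 genes were. None was 2-fold lower, against 12.4% of genes. In the intermediate zone C1qb and Gpnmb were 2-fold above the far lung, at 2.22 (1.99 to 2.49) and 2.63 (1.82 to 3.75), as were 6.13% of 14205 genes, and none was lower, against 2.08%. In the core over the margin, Spp1 was 2-fold higher, as were 3.66% of 11745 genes, and Apoe and Gpnmb 2-fold lower, as were 15.6%. Between core and far lung, 6 genes were 2-fold higher (C1qa, C1qb, C1qc, Trem2, Spp1 and Cd68), against 22.4% of genes, and none was lower, against 22.8%. The median log2 ratio of all genes between margin and far lung was 0.40, and it was -0.07 when haemoglobin, mitochondrial, surfactant protein, secretoglobin and immunoglobulin genes were left out of the totals. With those totals the margin had 3.09-fold the far level of C1q, 1.89-fold that of Apoe, 6.69-fold that of Gpnmb, 3.92-fold that of Trem2 and 1.12-fold that of Spp1 (0.991 to 1.27). With those totals, counting error no longer separated the Spp1 of the margin from that of the far lung. Csf1r in the core over the far lung turned from 1.17 to 0.812.

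Far from the metastases, the lung of the tumour-bearing mouse had about 2-fold the C1q level of the control lung, at a ratio of 1.96 (1.87 to 2.06). The 3 chains had like ratios, at 2.00 for C1qa, 1.91 for C1qb and 1.96 for C1qc. Spp1 was at 1.86 (1.75 to 1.98), Gpnmb at 1.43 (1.09 to 1.86), Cd68 at 1.26 (1.09 to 1.44) and Apoe at 1.15 (1.12 to 1.19). No gene of the 9 reached 2-fold in either direction, against 2.19% of 15788 genes higher and 6.78% lower. C1qa, at 1.997, lay just under that cut, so this count depended on the totals used. With haemoglobin and the other abundant genes left out of the totals, C1qa was at 2.19, C1qb at 2.10, C1qc at 2.15 and Spp1 at 2.04. When spots were thinned to a common depth the Gpnmb ratio was 0.845 (0.513 to 1.35), so its direction is not settled. Neutrophil genes moved with this comparison, since the list of 8 summed to 24.7 CP10k in the far lung and to 2.21 in the control lung. Their part in the C1q ratio was not tested. The control section also held cardiac muscle, whose list summed to 29.3 CP10k there and to 0.0668 in the far lung, and without the 104 spots rich in it the C1q ratio was 2.08.

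Margin and core were further from the control lung. Against it, 8 of the 9 genes were at least 2-fold higher in the margin, all but Csf1r, where 19.5% of 15433 genes were higher, and none was lower, against 16% of genes. In the core 6 were higher, against 18.7% of 15496 genes, and none was lower, against 28.1%. C1q had 8.37-fold the control level in the margin (7.88 to 8.89) and 7.97-fold in the core (7.56 to 8.40), and Gpnmb 13.2-fold in the margin (10.1 to 17.2). Apoe in the core was 0.754-fold the control level (0.701 to 0.810).

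Of the partners of TREM2 and APOE (adaptor, signalling and receptor genes), 5 of 11 were at least 2-fold higher in the margin than in the far lung and none was lower, where 23% and 12.4% of all genes were, with a median log2 ratio of 0.78 beside 0.40 for all genes. Tyrobp, the adaptor of TREM2, was at 6.61 CP10k in the core, 8.85 in the margin, 2.72 in the far lung and 1.77 in the control lung. Lrp1, an endocytic receptor for APOE, was at 3.61, 2.38, 2.27 and 2.14, and Clu, the extracellular chaperone clusterin, at 4.29, 2.53, 1.60 and 2.11. In the core over the margin, 1 of the 11 was higher and 4 were lower, where 3.66% and 15.6% of all genes were. Of 7 SPP1 receptor genes, 3 were higher in the margin than in the far lung and none was lower, beside the same 23% and 12.4%. Their median log2 ratio, 0.31, was below the 0.40 of all genes. Cd44 was at 2.00 CP10k in the core, 2.38 in the margin and 0.784 in the far lung. Itgb1, the shared integrin beta chain, was at 3.68, 3.61 and 3.24, and Itgb5 at 0.290, 0.497 and 0.755. In the core over the margin, none of the 7 was higher and 2 were lower, beside 3.66% and 15.6% of all genes, and counts this small are not read as a result about the receptors.

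Of 5 genes for CSF1R ligands and related cytokines and receptors, 4 were 2-fold higher in the margin than in the far lung, where 23% of all genes were. Csf1, the main ligand of CSF1R, was at 1.34 CP10k in the core, 1.19 in the margin and 0.536 in the far lung. The receptor subunits Csf2rb and Csf2ra were at 0.929 and 0.704 in the margin. Of 8 genes of the C1 complex and early complement, 4 were higher in the margin than in the far lung and 6 in the core than in the far lung, where 23% and 22.4% of all genes were. None was lower in either, against 12.4% and 22.8%. C3, the central complement component, was at 15.1 CP10k in the core, 12.8 in the margin, 5.87 in the far lung and 4.41 in the control lung. C4b was at 2.42, 1.70, 1.19 and 1.61, and Serping1, the C1 inhibitor, ran the other way, at 2.17, 2.99, 3.59 and 4.31.

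Of 18 lysosome and lipid-handling genes, 10 were 2-fold higher in the margin than in the far lung and 2 were lower, where 23% and 12.4% of all genes were, with a median log2 ratio of 1.22 beside 0.40 for all genes. In the core over the margin 1 was higher and 5 were lower, beside 3.66% and 15.6%. Npc2, a lysosomal cholesterol carrier, was at 9.25 CP10k in the core, 16.2 in the margin and 10.1 in the far lung. Cd36, a fatty acid receptor that endothelial cells also express, was at 0.545, 2.51 and 6.93. Ctsb, a lysosomal protease, was at 12.1, 9.56 and 4.11. Of 14 genes of C1q-type interstitial macrophages, 6 were higher in the margin than in the far lung beside 23% of all genes. In the core over the far lung 10 were higher and 2 were lower, beside 22.4% and 22.8%. In the core over the margin, 3 of the 13 with enough counts were higher (Mrc1, Folr2 and F13a1, named after their values were seen) and none was lower, beside 3.66% and 15.6% of all genes. Pf4 was at 1.89 CP10k in the core, 1.41 in the margin and 1.06 in the far lung, and Axl, a receptor for dying cells, at 2.37, 2.22 and 0.602. Lyve1, which lymphatic endothelium also expresses, was at 0.260, 0.413 and 0.827.

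By likeness over the 1110 spots of the metastatic section (Pearson r of log values), the genes nearest to the C1q sum were Cd74, the MHC class II invariant chain (r = 0.65), S100a6 (0.65) and Rpl13 (0.63). Those nearest to Apoe were Cd74 (0.57), Lyz2, a lysozyme of macrophages and alveolar type II cells (0.54), and H2-Ab1, an MHC class II chain (0.52). Gpnmb was nearest to Mmp12, the macrophage elastase (0.38), Ctss (0.35) and Apoe (0.34). Mmp12 was at 0.320 CP10k in the core, 2.16 in the margin and 0.148 in the far lung. For Spp1 the nearest were B2m (0.39), S100a6 (0.36) and Vim (0.36). In the control section the same r lay between -0.01 and 0.33 over 1888 spots. The r values for Spp1 and Gpnmb were below 0.40, Gpnmb has few counts, and spots share library and depth.

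Markers of other cells moved with position as well. The alveolar macrophage list of 10 genes summed to 2.29 CP10k in the core, 4.70 in the margin, 2.23 in the far lung and 2.28 in the control lung. Marco alone took 1.39 of the core sum. In the core over the far lung, 8 of the 10 genes were 2-fold lower and 1 was higher, beside 22.8% and 22.4% of all genes. Between core and margin, 6 of the 7 listed genes with enough counts were lower in the core and Marco was higher, where 15.6% and 3.66% of all genes were. Siglecf and Fabp1 were at 0 in the core. The monocyte list of 7 genes summed to 4.17 in the core, 6.65 in the margin and 12.5 in the far lung, where Ace, which endothelium also expresses, took 11.3, and 6 of the 7 were 2-fold higher in the margin than in the far lung, as were 23% of all genes. The dendritic cell list summed to 0.314 in the core, 1.18 in the margin and 0.573 in the far lung, and the T and NK cell list to 1.24, 3.28 and 1.06. The alveolar type II cell list summed to 21.4 in the core, 139.2 in the margin, 182.4 in the far lung and 289.7 in the control lung. Their part in the pattern of the 9 genes was not tested.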

How the data were processed

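Visium data of 1 metastatic and 1 control lung section were used. The authors deposited raw, unnormalized counts of molecules for each spot and gene, made with Space Ranger 1.3.1 on mm10 per the submitters' processing notes. Gene positions came from GENCODE M21 (GRCm38) and upstream sequences from RefSeq (GRCm38.p6).

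Levels were summed counts over summed totals, per 10000, with exact 95% Poisson intervals, and ratios had exact binomial intervals. Because the spots of 1 section share a library, no test was run. Fold changes of all genes used a pseudocount of 0.5 counts and at least 10 counts over the compared spots. At these depths a gene at 1 CP10k has about 1 count in a typical spot, so sums over spots were used.

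Regions came from k-means into 5 clusters on 20 principal components of 2000 variable genes (seed 1), without the 9 genes and the lists other than that of cancer cells. Core runs had at least 5 connected spots. Named genes were the 9, genes of highest likeness, the 3 of each pathway list with most counts, and genes that mark regions or other cells. Likeness was computed for the C1q sum, Apoe, Trem2, Spp1 and Gpnmb, taking the 3 genes nearest to each (at least 500 counts). The genes of highest likeness to Trem2 are not reported here. The members and lists were chosen with earlier results of these data known. Alternatives were 8 clusters, smoothed clustering, a core by marker score, no minimum run, totals without 452 abundant genes, thinning to 5000 counts, per-spot means, each metastasis alone, a margin of 100 µm, far spots over 800 µm, control spots without cardiac muscle, and count minimums of 1 and 50. The tools were scikit-learn 1.9.0, scipy 1.17.1, matplotlib 3.10.9, pandas 2.3.3 and numpy 2.4.6 under Python 3.11.15, and the interval code was tested on simulated data.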

Additional observations from a re-analysis of the deposited data

How the results depend on the processing

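No paired analysis was possible because each group was 1 section. The planned 8 clusters gave no core, since the highest cluster had 9 spots and no connected run over 4; joining its 2 highest clusters, chosen after seeing the data, kept the 5 main results within their counting intervals. The C1q ratio of margin to far lung (4.27) was 3.53 with smoothed clustering, 2.79 with a core by marker score, 3.09 without abundant genes, 3.87 thinned, 3.97 by per-spot means, 4.01 for the upper metastasis alone and 4.72 for a 100 µm margin. The C1q ratio of core to margin (0.952) was 1.196 smoothed, 1.60 by marker score, 1.71 for the upper metastasis alone and 0.861 for a 100 µm margin, so whether C1q was higher in core or margin is not settled. The Spp1 ratio of core to margin (2.83) was 2.42 thinned, 2.36 by per-spot means and 0.275 for the upper metastasis alone. The C1q ratio of far to control lung was 1.83 by marker score, 1.86 with no minimum run, 2.15 without abundant genes and 2.08 without cardiac spots. The log2 difference between the 2 gene groups (-0.11) was 0.20 by marker score and 0.21 for a 100 µm margin; it could not be computed for the upper metastasis alone, whose core had no Gpnmb count. Of 332 alternatives for single genes, 244 stayed within the main interval, 81 moved and 7 reversed. The reversed were C1qb in core over margin (smoothed 1.13, marker score 1.47, upper metastasis 1.61), Apoe in core over far lung (marker score 1.26), Cd68 and Csf1r in core over margin (marker score 1.57 and 1.29) and Gpnmb in far over control lung (thinned 0.845). The core by marker score held 125 spots. Between core and margin, 3.66% of genes were 2-fold higher with a minimum of 10 counts, 2.11% with 50 and 5.21% with 1, and 15.6%, 9.09% and 23.9% were lower; between far and control lung, 2.19%, 1.01% and 7.56% were higher and 6.78%, 3.68% and 10.1% lower. The causes were not tested.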
